A study of Drosophila melanogaster with 8 samples.

Results

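Knockdown of dSTING was examined in S2 cells that had been mock transfected, that is, given transfection reagent without DNA. The comparison holds 4 of the 8 arrays of the series, taken by sample title: 2 of dSTING RNAi mock cells and 2 of control mock cells. S2 is a Drosophila melanogaster line with features of hemocytes, the blood cells of the fly. RNAi cells received double-stranded RNA (dsRNA) against dSTING and control cells a non-specific dsRNA, so that both groups had taken up dsRNA. Mock transfection followed 3 days later and lysis 24 hours after that. The other 4 arrays, dSTING RNAi dsDNA and control dsDNA, were treated alike but received a double-stranded DNA of 90 nucleotides in place of the mock. They serve here as a second set of arrays with the same knockdown. Whether mock and dsDNA cells came from separate dsRNA treatments is not labelled. In 4 samples the genotype tag contradicts the title and the source name, and the titles were followed. Whether the arrays of one group stem from different cultures is not labelled, and p-values therefore measure only the spread between these arrays, which may be technical.

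STING is a receptor of the endoplasmic reticulum that binds cyclic dinucleotides, small second messengers made by bacteria or by cGAS-like receptors of the cell. In flies it acts through the kinase IKKbeta with its partner key and the NF-kappaB factor Rel, which are shared with the Imd pathway against bacteria, and it induces antiviral genes. Fly Sting has also been tied to lipid metabolism and autophagy. The comparison in mock cells describes how the transcriptome differs between cells given dSTING dsRNA and cells given non-specific dsRNA, with no DNA added. Whether the dSTING dsRNA also acted on other transcripts was not tested.

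Each array gave a probe set 1 intensity, linear and with a floor at 1, and differences were taken on log2(intensity + 1). This scale understates changes of dim probe sets, and the number of arrays limits the precision. In all, 18769 probe sets were tested. The 4189 with a mean log2 level above 3 over all 8 arrays are called the brighter probe sets below. Hemocyte markers were present, with 7 of 14 above that level and a summed intensity of 434 to 455 in dSTING RNAi mock arrays and 428 to 467 in control mock arrays. Of the markers of other cells above the level, there were 0 of 6 measured for fat body, 0 of 7 for muscle, 0 of 6 for gut, 1 of 9 for neurons and glia (moody) and 1 of 7 for germline (tud). The moody intensity was 25.8 and 24.9 in dSTING RNAi mock arrays and 27.9 and 19.2 in control mock arrays. Control mock array 2 stood apart on the first principal component of the brighter probe sets, at 12.2, where the other 3 mock arrays lay between -1.31 and 2.95. Many of the results below are therefore also given without it, or without control mock array 1.

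Sting (CG1667), the targeted gene, had the lowest difference of all brighter probe sets. It had intensities of 3.45 and 6.34 in dSTING RNAi mock arrays and 50.9 and 48.7 in control mock arrays. The groups did not overlap, and the mean was 10.2-fold lower in RNAi cells (log2 difference -3.15, SE 0.27). With Benjamini-Hochberg adjustment over all 18769 probe sets its limma p was 0.367 (unadjusted 5.87e-05). No probe set passed an adjusted limma p of 0.05 over the whole table (0 of 18769, or 0%), while 398 higher (2.12%) and 488 lower ones (2.6%) had an unadjusted p below that value. An exact permutation test of 2 arrays against 2 cannot go below p = 0.333. In these bulk samples, fewer cells that express a gene and less RNA per cell cannot be told apart.

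A pair of further transcripts were more than 3-fold lower in RNAi cells. CG17224, listed here under nucleotide metabolism as a predicted uridine phosphorylase, had 6.46 and 5.73 in dSTING RNAi mock arrays and 18.8 and 23.8 in control mock arrays. Its mean was 3.5-fold lower (log2 difference -1.65, SE 0.13, adjusted limma p 0.367). The long non-coding RNA lncRNA:CR32368 had 19.1 and 21.3 in dSTING RNAi mock arrays and 67.4 and 67.8 in control mock arrays, 3.35-fold lower (log2 difference -1.70, SE 0.19, adjusted limma p 0.751). Neither had overlapping groups, and both RNAi arrays lay close together. When only the brighter probe sets were tested, limma called these 2 genes and Sting, all lower, and none higher (3 of 4189, or 0.0716%). The adjusted limma p was then 0.0021 for Sting, 0.00236 for CG17224 and 0.00832 for the non-coding RNA. Sting and CG17224 lay below a log2 level of 3 in both dSTING RNAi mock arrays and reached that mean through the control arrays. The filter thus drew on the values being compared, and for these genes its calls are no separate support. A filter at the median level called the same 3 genes (3 of 9385, or 0.032%), and centring each array on its median called Sting and CG17224 among all probe sets (2 of 18769, or 0.0107%). Groups without overlap were common by themselves: 20.9% of the brighter probe sets were lower and 9.67% higher in both RNAi arrays than in both control arrays. Within the brighter probe sets, leaving out any 1 array kept the call of Sting. That of CG17224 did not pass once dSTING RNAi mock array 2 was removed (0.06). The call of lncRNA:CR32368 was lost without dSTING RNAi mock array 1 (0.156) or 2 (0.0862), control mock array 2 (0.0665), or control dsDNA array 1 or 2 (0.0529 each), the last pair entering through the shared spread.

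**Figure D1:**
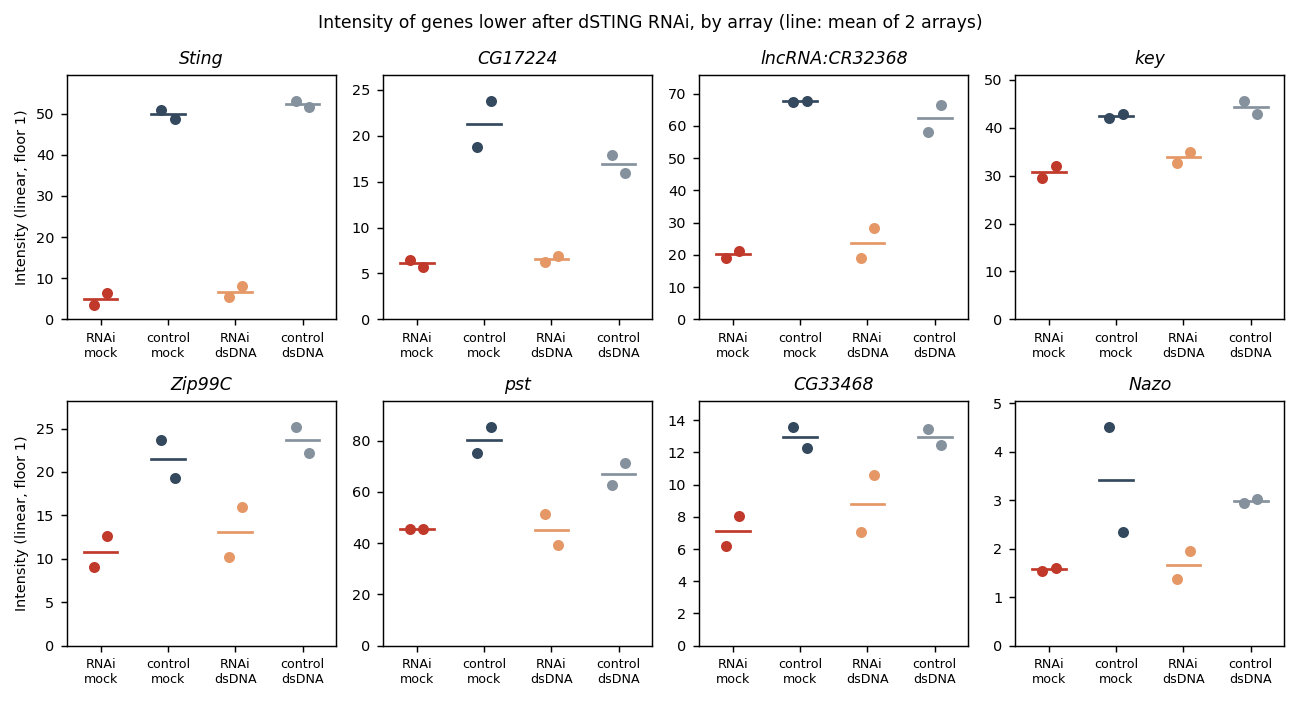
Intensity (linear scale, vertical axis from 0) of 8 genes in each array, with dSTING RNAi mock, control mock, dSTING RNAi dsDNA and control dsDNA cells from left to right; points are arrays and lines the means of 2 arrays. The 8 genes were picked from the named genes with their values known, and all were lower without overlap in both treatments. Of all brighter probe sets 20.9% were so in mock and 5.63% with dsDNA. The genes cN-IIIB, Dph2, Dhrs4 and Bka, which overlapped with dsDNA, are not shown. For Sting the RNAi mock arrays lie at 3.45 and 6.34 and the control mock arrays at 50.9 and 48.7.

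The other predicted uridine phosphorylase genes were picked out after their values were seen. CG6330 was bright, at 205 and 191 in dSTING RNAi mock arrays and 192 and 232 in control mock arrays, and the groups overlapped (log2 difference -0.09, SE 0.14). CG3788 lay near the floor, at 1.39 and 1.34 in dSTING RNAi mock arrays and 1.36 and 1.24 in control mock arrays. Of 17 measured genes of nucleotide metabolism, 13 were brighter, and of these 4 were lower and 1 was higher without overlap. Against that, 21.4% of all 3543 brighter genes, taken with 1 probe set each, were lower and 9.14% higher without overlap.

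With all arrays 10 of the 4189 brighter probe sets differed by 1.5-fold or more on the log2(intensity + 1) scale, 7 lower (0.167%) and 3 higher (0.0716%) in RNAi cells. This count depended on the control arrays, being 8 lower and 0 higher without control mock array 2 and 18 lower and 18 higher without control mock array 1. The median absolute log2 difference between the group means was 0.08, against 0.15 between the 2 control mock arrays and 0.08 between the 2 dSTING RNAi mock arrays. Means of 2 arrays vary less than single arrays, so these values, and the counts of replicate differences that follow, are not on one scale with the knockdown. The 2 control mock arrays differed from each other by more than 1.5-fold in 66 brighter probe sets. The 2 dSTING RNAi mock arrays did so in 11, so differences of that size also occurred between replicates. The 7 lower ones were Sting, lncRNA:CR32368, CG17224, Zip99C, pst, CG33468 and probe set 1628884_at, which has no gene name. All 7 remained past that size when either control mock array was left out. The 3 higher ones were NaPi-III, MFS14 and CG3348, which were among the 18 without control mock array 1.

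**Figure D2:**
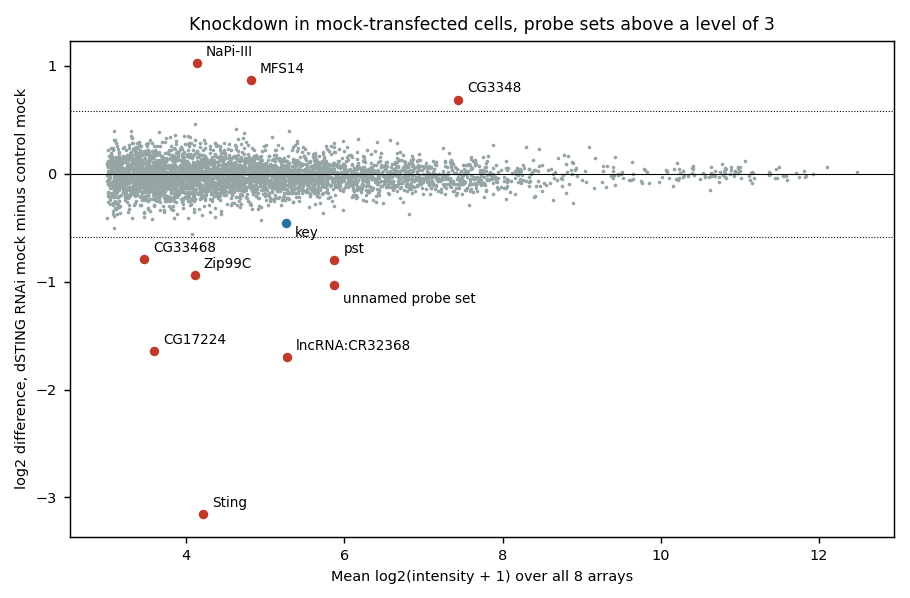
Log2 difference between dSTING RNAi mock and control mock cells (vertical axis) against the mean log2(intensity + 1) over all 8 arrays (horizontal axis) for the 4189 brighter probe sets; dotted lines mark 1.5-fold. The 7 red points below the lower line include Sting at -3.15, the 3 above the upper line are NaPi-III, MFS14 and CG3348, and key, in blue, lies at -0.45.

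Another 4 of the lower transcripts form a second tier. Zip99C encodes a transporter of the ZIP family that moves iron into the secretory pathway in flies. Its intensity was 9.01 and 12.6 in dSTING RNAi mock arrays and 23.6 and 19.2 in control mock arrays, a mean 1.99-fold lower (log2 difference -0.94, SE 0.25, unadjusted limma p 0.0121). The gene pst (pastrel), known in flies as a restriction factor against Drosophila C virus, had 45.5 and 45.7 in dSTING RNAi mock arrays and 75.2 and 85.3 in control mock arrays. Its mean was 1.76-fold lower (-0.80, SE 0.14, unadjusted limma p 0.00208). CG33468, a gene without a described role here, had 6.16 and 8.05 in dSTING RNAi mock arrays and 13.6 and 12.3 in control mock arrays (-0.79, SE 0.20, unadjusted limma p 0.00947). Probe set 1628884_at, chosen only once its values were known, had 38.2 and 41.7 in dSTING RNAi mock arrays and 71.1 and 95.5 in control mock arrays (-1.03, SE 0.14, unadjusted limma p 0.000604). In each of the 4 both RNAi arrays lay below both control arrays, but none passed over all probe sets (adjusted limma p 0.851 to 0.951). None passed among the brighter ones with all arrays either. The unnamed probe set came nearest, with an adjusted limma p of 0.0741 there, and it passed only without control mock array 1 (0.0206).

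Apart from key, the remaining genes of the STING axis were either dim or little different. The list holds 11 genes, of which 9 were measured and 3 were brighter: Sting, key and Rel. The gene key (kenny), which encodes the regulatory IKK gamma subunit, had 29.4 and 32.1 in dSTING RNAi mock arrays and 42.0 and 42.9 in control mock arrays. The groups lay 1.38-fold apart without overlap (log2 difference -0.45, SE 0.06, unadjusted limma p 0.000471, adjusted 0.851). Among the brighter probe sets its SE was 0.10 and its adjusted limma p 0.998. Rel had 27.3 and 27.6 in dSTING RNAi mock arrays and 32.4 and 28.5 in control mock arrays (-0.14, SE 0.09). Its groups did not overlap, but the difference was -0.05 without control mock array 1 and -0.23 without control mock array 2. The kinase gene IKKbeta was dim and overlapped, at 2.74 and 2.47 in dSTING RNAi mock arrays and 3.19 and 2.28 in control mock arrays.

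Nazo, an antiviral gene induced through Sting in flies, was dim in all 4 arrays. Its intensity was 1.54 and 1.61 in dSTING RNAi mock arrays and 4.51 and 2.33 in control mock arrays (log2 difference -0.74, SE 0.24, unadjusted limma p 0.0271). The RNAi arrays were lower without overlap, and the difference was -0.37 without control mock array 1 and -1.10 without control mock array 2. The genes of the cGAS-like receptors (cGlr1, cGlr2) and of 2 genes regulated by Sting in flies (Srg1, Srg2) were close to the floor, with overlapping groups. cGlr2, the highest of these, had 1.38 and 1.38 in dSTING RNAi mock arrays and 1.36 and 1.43 in control mock arrays. For these 4 genes the log2 differences lay between -0.06 and -0.01.

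Genes next to the 3 most lowered transcripts were measured to see how far the differences reached along the chromosome. In the RefSeq annotation of the fly (Release 6 plus ISO1 MT), Sting lies on chromosome arm 2R and overlaps Orc6, which had no probe set of its own here. Of its measured neighbours Marc and CG1671 had overlapping groups (log2 differences -0.03, SE 0.16, and 0.07, SE 0.09). Vamp7, a SNARE protein gene, had 23.6 and 21.3 in dSTING RNAi mock arrays and 25.7 and 26.6 in control mock arrays (-0.21, SE 0.08). Prosalpha7, a proteasome subunit gene, had 85.3 and 79.3 in dSTING RNAi mock arrays and 92.4 and 93.5 in control mock arrays (-0.17, SE 0.07). Both were lower without overlap, where 21.4% of all brighter genes were, and by far less than Sting.

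Beside CG17224, on arm 2L, the dim gene CG17264 was lower as well, at 1.91 and 1.36 in dSTING RNAi mock arrays and 2.74 and 2.75 in control mock arrays (log2 difference -0.51, SE 0.18, unadjusted limma p 0.0317). The other 3 neighbours of CG17224 had differences of -0.15 (alpha4GT1, SE 0.11), -0.14 (Ccdc85, SE 0.06) and 0.07 (CG3558, SE 0.13). Around lncRNA:CR32368, on arm 3L, the differences were -0.17 for Tmem43 (SE 0.06), -0.04 for Srp9 (SE 0.10), -0.02 for CG8281 (SE 0.11) and 0.18 for the dim gene syd (SE 0.17). Around CG17224 the groups of CG17264, alpha4GT1 and Ccdc85 were lower without overlap, and those of CG3558 overlapped. Around the non-coding RNA Tmem43 and Srp9 were lower and syd higher without overlap, and CG8281 overlapped. Of all genes, dim ones included, 16.5% were lower and 13.1% higher without overlap in mock. With dsDNA Tmem43 (-0.40) and CG17264 (-0.26) were lower without overlap, and Ccdc85 (0.13) and CG8281 (0.18) higher. There 11.4% of all genes were lower and 12.8% higher without overlap. None of the 12 measured neighbours passed over all probe sets.

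The cells given dsDNA provided 4 arrays that the mock comparison does not share, although they entered the mean level that defines brighter genes. Of these, dSTING RNAi dsDNA array 2 stood apart on the first principal component at -12.5, as control mock array 2 did at 12.2. The 2 dSTING RNAi dsDNA arrays differed from each other by more than 1.5-fold in 191 brighter probe sets. The differences with dsDNA given here include that array. The 12 largest negative differences in mock were taken among brighter genes without overlap there. Of these 12 genes, 9 were also negative with dsDNA, where 44.4% of the brighter probe sets were. With dsDNA 8 of the 12 were lower without overlap, where 5.63% of those probe sets and 5.76% of genes with 1 probe set each were. Leaving out Sting, the targeted gene, it was 7 of 11. CG17224 and Dci lay below a log2 level of 3 in every dSTING RNAi array, and Sting in both mock ones. They count as brighter through the control arrays, so for them the share is no separate support. The 8 were Sting, lncRNA:CR32368, CG17224, Zip99C, pst, CG33468, key and Dci, the last encoding an enoyl-CoA isomerase of fatty acid oxidation. Each had an unadjusted limma p under 0.05 with dsDNA, and none passed over all probe sets (smallest adjusted limma p 0.901, with 447 higher, or 2.38%, and 400 lower, or 2.13%, at an unadjusted p under 0.05). The spread behind each of these p-values is shared with the mock comparison, because all 8 arrays were fitted together.

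For Zip99C the values with dsDNA were 10.2 and 15.9 in dSTING RNAi arrays and 25.2 and 22.2 in control arrays (log2 difference -0.84, unadjusted limma p 0.0187). For pst they were 51.4 and 39.2 in dSTING RNAi arrays and 62.7 and 71.3 in control arrays (-0.57, unadjusted limma p 0.00959). CG33468 had 7.06 and 10.6 in dSTING RNAi arrays and 13.4 and 12.4 in control arrays with dsDNA (-0.53, unadjusted limma p 0.0423). In all 3 the groups stayed apart in both treatments. Dci, which sits just above the level of 3, had 5.55 and 6.31 in dSTING RNAi mock arrays and 8.02 and 8.34 in control mock arrays (-0.41, SE 0.07), and -0.32 with dsDNA.

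The other 4 of these 12 genes had overlapping groups with dsDNA. The nucleotidase gene cN-IIIB had 7.97 and 6.65 in dSTING RNAi mock arrays and 9.16 and 12.5 in control mock arrays (log2 difference -0.50, SE 0.38), but 0.06 with dsDNA. Dph2, for the synthesis of diphthamide, had -0.42 (SE 0.22) in mock and 0.02 with dsDNA, and the dehydrogenase gene Dhrs4 had -0.41 (SE 0.20) in mock and -0.07 with dsDNA. Without control mock array 2 these 3 genes had -0.29, -0.10 and -0.19 in mock. Bka had 12.2 and 12.3 in dSTING RNAi mock arrays and 16.02 and 17.2 in control mock arrays (-0.41, SE 0.10), and 0.14 with dsDNA. The difference between its 2 effects was -0.55 (unadjusted limma p 0.00964, adjusted 1). Over all probe sets limma called 0 for the difference between the knockdown effects with mock and with dsDNA, with 397 higher (2.12%) and 389 lower (2.07%) at an unadjusted p under 0.05. That difference was -0.34 for Sting, -0.41 for CG17224 and -0.31 for the non-coding RNA, none past the threshold.

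**Figure D3:**
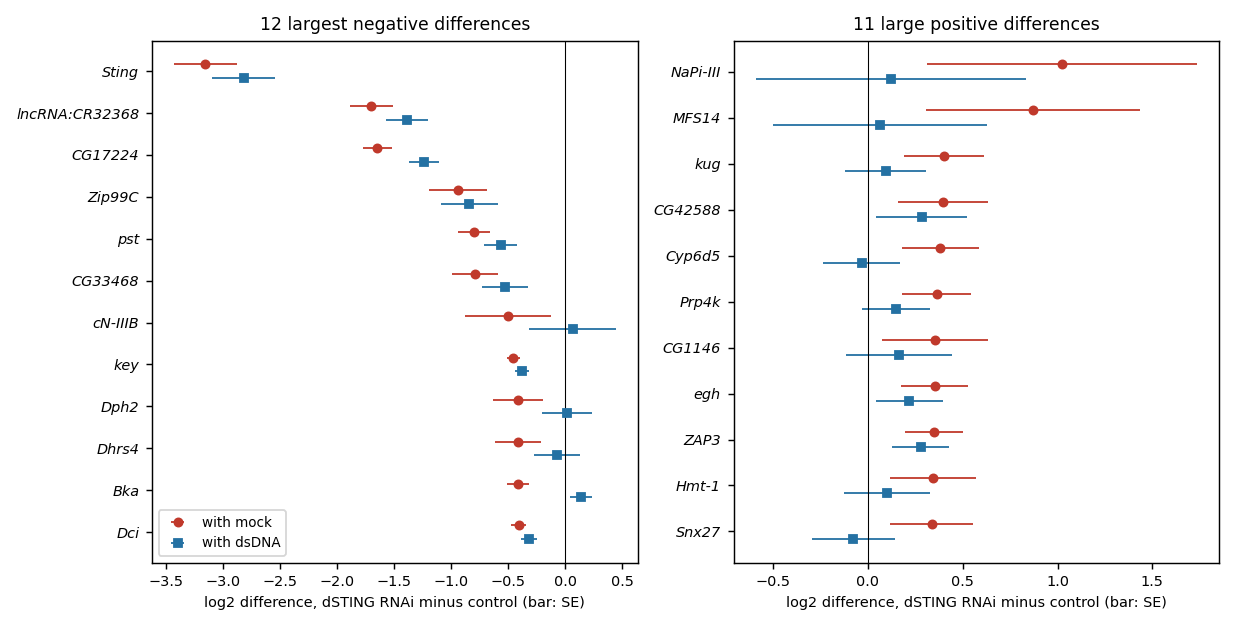
Log2 difference between dSTING RNAi and control cells (horizontal axis, bars are SE) with mock (red circles) and with dsDNA (blue squares), for 12 brighter genes with the largest negative (left) and 11 with the largest positive (right) differences in mock among those without overlap. On the left 9 of 12 squares lie below 0, from Sting at -2.82 upward, while on the right the squares lie between -0.08 and 0.28.

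The positive differences were smaller. Among brighter genes without overlap in mock, the 12 with the largest positive differences had a median log2 difference of 0.37, and 0.11 with dsDNA. With dsDNA 9 of them were positive, where 55.6% of all brighter probe sets were, and 1 was higher without overlap, where 10.6% were. In 11 of the 12, control mock array 2 was the lower of the control arrays. Without it their median was 0.17, and 10 of the 12 differences shrank by more than 1.5 times. The part of that array in these differences was not tested further.

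The phosphate transporter gene NaPi-III had 19.4 and 24.9 in dSTING RNAi mock arrays and 19.4 and 5.28 in control mock arrays (log2 difference 1.02, SE 0.71, and 0.18 without control mock array 2). MFS14, a transporter of the major facilitator superfamily, had 32.9 and 35.2 in dSTING RNAi mock arrays and 28.8 and 11.3 in control mock arrays (0.87, SE 0.56, and 0.23 without that array). In both, the RNAi arrays barely exceeded control mock array 1. CG3348, named after its values were seen, had overlapping groups, at 176 and 235 in dSTING RNAi mock arrays and 182 and 87.0 in control mock arrays.

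The difference of ZAP3 was not smaller without that array (0.43). ZAP3 had 17.8 and 17.1 in dSTING RNAi mock arrays and 12.6 and 14.3 in control mock arrays (log2 difference 0.35, SE 0.15), and 0.28 with dsDNA, and was the gene higher without overlap in both treatments. Another 8 were the cadherin gene kug, the cytochrome P450 gene Cyp6d5, the splicing kinase gene Prp4k, the glycosyltransferase gene egh, the metal transporter gene Hmt-1, the sorting nexin gene Snx27, and CG42588 and CG1146. Their log2 differences lay between 0.34 and 0.40 in mock. A second brighter probe set of egh gave 0.31 (SE 0.18), while other probe sets of CG42588 and Snx27 lay near the floor with differences of -0.11 to 0.01.

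Gene lists were described by counts and medians over members with 1 probe set each. No member of any of the 37 lists passed over all probe sets. Of all 3543 brighter genes, 57.6% were negative, 21.4% were lower and 9.14% were higher without overlap. Their median log2 difference was -0.02 with all arrays, -0.04 without control mock array 2 and -0.01 without control mock array 1.

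All 7 measured antimicrobial peptide genes were below the level of 3, 1 of them higher and 3 lower without overlap. Across all genes, dim ones included, 13.1% were higher and 16.5% lower without overlap. Of 13 brighter Imd genes 4 were lower and 1 was higher without overlap, against 21.4% and 9.14% of all brighter genes. Their median log2 difference was -0.06, with key lowest at -0.45 and casp highest at 0.18. It was -0.10 without control mock array 2 and -0.05 without control mock array 1. Toll genes had a median of 0.05 over 5 brighter members, -0.05 without control mock array 2 and 0.10 without control mock array 1. Of the 5, 1 was lower without overlap, GNBP3, a receptor for fungal glucans. It had 29.5 and 32.6 in dSTING RNAi mock arrays and 38 and 36.5 in control mock arrays (-0.26, SE 0.06, unadjusted limma p 0.00549). With dsDNA GNBP3 had -0.07.

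JAK/STAT genes had a median log2 difference of 0.13 over 5 brighter members, with overlap in every one, but -0.12 without control mock array 2 and 0.26 without control mock array 1. Their transcription factor gene Stat92E had 29.5 and 33.7 in dSTING RNAi mock arrays and 34.2 and 23 in control mock arrays. Of 7 brighter RNA interference genes 1 was lower without overlap, where 21.4% of all brighter genes were. Their median was -0.07 with all arrays and without control mock array 2, and 0.02 without control mock array 1, with Tudor-SN lowest at -0.12 and Dcr-2, the nuclease that cuts long dsRNA, highest at 0.14.

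A wider list of hemocyte genes had a median log2 difference of 0.02 over 15 brighter genes, -0.08 without control mock array 2 and 0.09 without control mock array 1. Of these 15 genes 1 was higher and 1 lower without overlap, where 9.14% and 21.4% of all brighter genes were. The higher one was srp, which encodes a GATA factor of blood cells. Its intensity was 45.5 and 43.5 in dSTING RNAi mock arrays and 39.9 and 34.8 in control mock arrays (0.25, SE 0.16, and 0.15 without control mock array 2). Phagocytosis and scavenger receptor genes had 0.10 over 6 brighter members, -0.05 without control mock array 2 and 0.24 without control mock array 1.

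Lipid metabolism and autophagy were listed for the known ties of Sting to them. Lipid synthesis and storage genes had a median log2 difference of 0.02 over 8 brighter members, all with overlapping groups, but -0.13 without control mock array 2 and 0.19 without control mock array 1. They ran from Desat1 at -0.08 to ACC, the acetyl-CoA carboxylase gene, at 0.13. ACC had 32.0 and 33.6 in dSTING RNAi mock arrays and 34.3 and 26.2 in control mock arrays.

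All 9 measured genes of fatty acid oxidation were brighter and negative and 5 were lower without overlap, where 57.6% of all brighter genes were negative and 21.4% lower without overlap. Their median log2 difference was -0.10, against -0.02 for all brighter genes. Without control mock array 2 it was -0.04, as for all brighter genes, and without control mock array 1 it was -0.18. Dci was the lowest and CPT2 the highest (-0.01). Autophagy genes had 0.02 over 12 brighter members, 0.00 without control mock array 2 and -0.05 without control mock array 1, from Atg6 at -0.19 to Atg16 at 0.13. Lysosomal genes had 0.01 over 11 brighter members, -0.10 without control mock array 2 and -0.02 without control mock array 1, led by Swim at -0.22.

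Several housekeeping lists depended on which control mock array was used. Mitochondrial ribosomal protein genes had a median log2 difference of -0.10. Of 68 brighter members 60 were negative, against 57.6% of all brighter genes, and 20 were lower without overlap, against 21.4%. Without control mock array 2 the median was 0.01, and without control mock array 1 it was -0.20. Mitochondrial respiration genes had -0.05 over 54 brighter members, 14 of them lower without overlap, -0.01 without control mock array 2 and -0.09 without control mock array 1.

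Proteasome genes had the lowest median log2 difference among lists with 5 or more brighter members, -0.11, with 27 of 28 negative and 13 lower without overlap, against 57.6% and 21.4% of all brighter genes. It was -0.06 without control mock array 2, where all brighter genes had -0.04, and -0.16 without control mock array 1, where they had -0.01. Prosbeta2 was lowest, at 84.2 and 70.9 in dSTING RNAi mock arrays and 86.4 and 91.2 in control mock arrays (-0.20, SE 0.16).

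Without overlap, 7 of 16 brighter V-ATPase genes, 5 of 8 heat shock and chaperone genes and 6 of 14 genes of DNA replication and the cell cycle were lower, where 21.4% of all brighter genes were. The median log2 difference of V-ATPase genes was -0.07, with -0.10 without control mock array 2 and -0.04 without control mock array 1. Heat shock and chaperone genes had -0.08, -0.10 without control mock array 2 and -0.11 without control mock array 1. They ran from Hsp26 at -0.33 (SE 0.33, and -0.15 without control mock array 2) to Hsc70-4 at 0.01. Replication and cell cycle genes had -0.03, -0.08 without control mock array 2 and -0.03 without control mock array 1, the lowest being the helicase subunit gene dpa at -0.40 (SE 0.19, and -0.22 without control mock array 1).

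Unfolded protein response genes had a median log2 difference of 0.04 over 18 brighter members, -0.02 without control mock array 2 and 0.10 without control mock array 1. Without overlap 2 were higher and 2 lower, where 9.14% and 21.4% of all brighter genes were. Herp, of the degradation machinery of the endoplasmic reticulum, was highest, with 20.2 and 22.8 in dSTING RNAi mock arrays and 18.02 and 17.4 in control mock arrays (0.26, SE 0.11). It had 0.27 with dsDNA, without overlap in either treatment. JNK and p38 genes had 0.03 over 14 brighter members, -0.11 without control mock array 2 and 0.12 without control mock array 1. Apoptosis genes had -0.06 over 6 brighter members and DNA damage and p53 genes -0.01 over 9.

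Cytosolic ribosomal protein genes had a median log2 difference of -0.01 over 33 brighter members with values between -0.15 and 0.10. Translation initiation factors had -0.04 over 30 and aminoacyl-tRNA synthetases -0.03 over 18. Glycolysis genes had -0.04 over 11, 0.01 without control mock array 2 and -0.09 without control mock array 1. Cytochrome P450 genes had 0.13 over 13 brighter members, -0.03 without control mock array 2 and 0.24 without control mock array 1. Glutathione S-transferases had 0.01 over 18. Detoxification and oxidative stress genes had 0.03 over 10, -0.06 without control mock array 2 and 0.09 without control mock array 1. They ran from the catalase gene Cat at -0.26 (SE 0.11) to GstD2 at 0.27 (SE 0.20), which without control mock array 2 had -0.15 and 0.11.

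Ecdysone response genes had 2 brighter members, both with overlapping groups, ImpL2 at 0.12 and ftz-f1 at 0.23, and 0.02 and 0.05 without control mock array 2. Of 88 long non-coding RNAs measured 9 were higher and 10 lower without overlap, where 13.1% and 16.5% of all genes were. Only 3 were brighter, and 2 of these were lower without overlap, lncRNA:CR32368 among them, where 21.4% of all brighter genes were. The wider lists for muscle, neurons and glia, and germline had 1 brighter gene each, of which flr, a regulator of actin that other cells express too, had -0.23 (SE 0.05) and 0.01 with dsDNA.

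**Figure D4:**
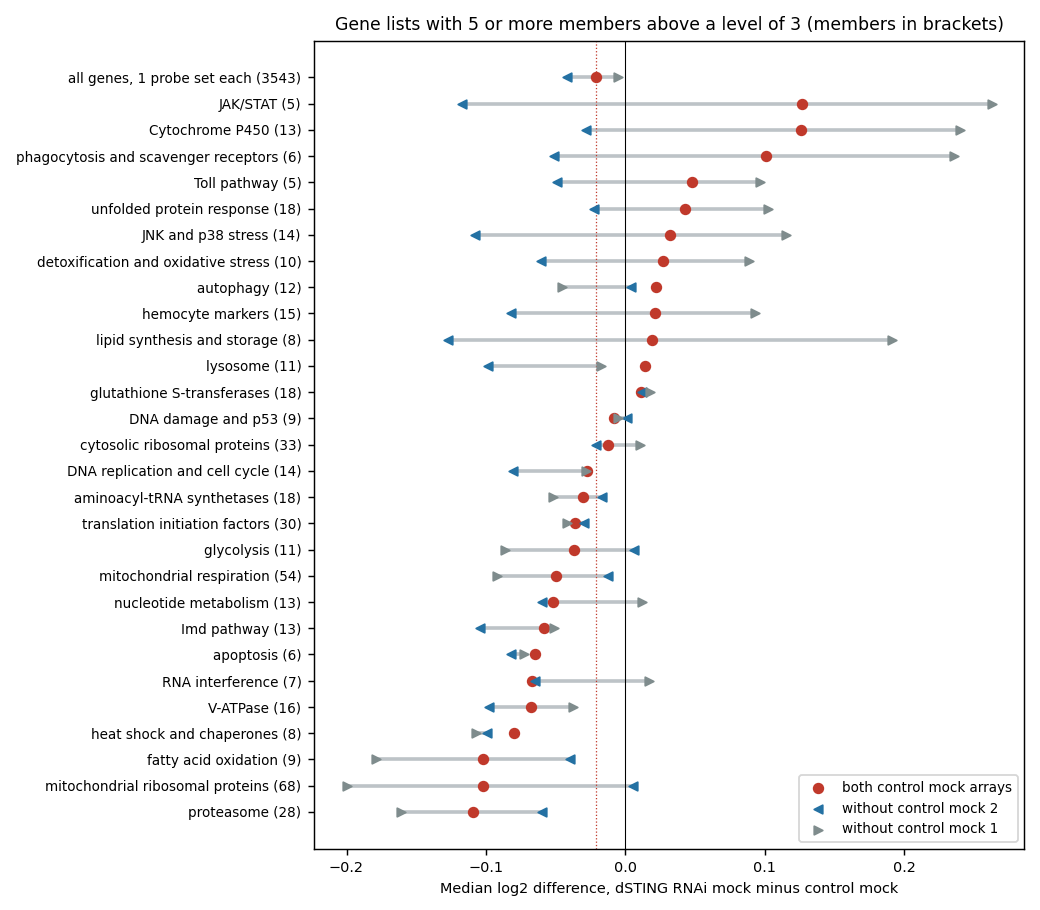
Median log2 difference between dSTING RNAi mock and control mock cells (horizontal axis) of each gene list with 5 or more brighter members, with both control mock arrays (red) and without control mock array 2 or 1 (blue and grey); the dotted line is the median of all brighter genes. Medians lie between -0.11 and 0.13, and the grey bars show how far a single control array moves them.

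Of the 28 lists with 5 or more brighter members, 12 had a positive median, and in 10 of these it was negative without control mock array 2. In 16 the median was negative, and 3 of these were positive without it. The lists that lay below the median of all brighter genes with both control arrays and with either one alone were Imd pathway, apoptosis, heat shock and chaperones, DNA replication and cell cycle, proteasome, and V-ATPase. Those above it in all 3 versions were unfolded protein response, cytosolic ribosomal proteins, cytochrome P450 and glutathione S-transferases. These positions are descriptions and were not tested.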

How the data were processed

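Each probe set has 1 linear intensity for every array in the table the authors deposited. Per the labels' protocols, total RNA was labelled with an Affymetrix 3' in vitro transcription kit; the software, background correction and normalization were not given in the sources used here. No value lies under 1, and 19.6% to 24.1% of an array's values lie at that floor, where they have no order. Of 18952 probe sets, 183 controls were left out. Platform annotation, updated by gene identifier to RefSeq, gave 13647 probe sets 1 gene (13544 matched by identifier), 402 several and 4720 none.

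Differences were fitted with limma 3.58.1 in R 4.3.3 on log2(intensity + 1), with 4 group means fitted to all 8 arrays together, and adjusted over all probe sets with a threshold of 0.05. The fit was tested on simulated data. Ratios are of mean intensities. Named genes were Sting, the STING list, the 12 largest differences each way among brighter genes without overlap (335 higher and 771 lower candidates, kermit at -0.41 and dtn at 0.33 being the next), list extremes and chromosomal neighbours; 1 of the 12 higher genes is not reported here. The comparison, the members and the lists were chosen with earlier results of these data known. The same replicate number does not pair arrays: deviations of same-numbered arrays correlated between -0.74 and 0.38.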

Additional observations from a re-analysis of the deposited data

How the results depend on the processing

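Over all probe sets limma called 0 for the knockdown in mock, 0 with dsDNA and 0 for the difference between both. The count stayed at 0 with quantile normalization, eBayes with trend and robust options, log2(intensity + 16), 1 probe set per gene, only the arrays compared, each array left out in turn and without the 2 arrays that stood apart. It was 2 in mock with arrays centred on their median (Sting at -3.13 and CG17224) and 3 with either filter on low values (Sting at -3.15), each of which tests fewer probe sets; with dsDNA it was 3 with either filter. Above the level of 3, as chosen after seeing the data, leaving out 1 array gave 1 to 4 calls in mock (Sting at -3.51 to -2.79, and -3.12 without control mock replicate 1) and 0 to 3 with dsDNA. There it gave 3 in mock (Sting at -3.18) and 3 with dsDNA without the 2 arrays that stood apart. With the replicate number as a block limma called 0 in all 3 comparisons over all probe sets (Sting at -3.15, adjusted limma p 1), and 3 in mock and 2 with dsDNA above the level of 3. Whether the numbers pair the arrays is not known, so the block says nothing of a weaker effect. For 30 other probe sets under up to 17 settings, 14 of 502 differences changed sign. All were in the 5 genes cGlr1, cGlr2, IKKbeta, Srg1 and Srg2, none of them called. The 30 do not cover every gene named above, and some of the rest also changed sign. With 1 mock array left out, Stat92E ran from -0.12 to 0.44 and ACC from -0.06 to 0.31. Adding 16 before the logarithm brought Sting to -1.66. With 2 arrays per group and a floor at 1, changes of dim probe sets were not detectable here.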
